A study of Saccharomyces cerevisiae with 21 samples.

Results

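The 31 genes described here encode the subunits of the RNA polymerases I, II and III of budding yeast (Saccharomyces cerevisiae). They were found by symbol in a table of raw counts for 5823 genes, and all 31 had enough counts to be tested. By the enzyme that holds the product, 7 belong to polymerase I only, 7 to polymerase II only and 10 to polymerase III only, 2 are shared by I and III, and 5 are shared by all 3. Total RNA depleted of ribosomal RNA was sequenced from 21 libraries, 3 for each of 7 strains: spt6-R, spt6-KK and spt6-R,KK, in which SPT6 is changed, rpb1-TPY, rpb1-FSP and rpb1-TPY,FSP, in which the gene of Rpb1 is changed, and a wild type (WT). The strain names with a comma combine the changes of a pair of strains and are called double mutants here. Every culture was harvested in logarithmic phase from rich medium at 30 °C. Spt6 is a histone chaperone and elongation factor whose tandem SH2 domain binds Rpb1, the largest subunit of RNA polymerase II, which the gene RPO21 encodes. The labels spell out neither the residues behind the allele names nor how the alleles were introduced. Whether replicate libraries stem from separate cultures is not stated either, so the p-values cover only the spread seen among these libraries, which may be technical.

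RNA polymerase I transcribes the large ribosomal RNA precursor, RNA polymerase II transcribes messenger RNAs, and RNA polymerase III transcribes transfer RNAs, 5S ribosomal RNA and other small RNAs. Each has its own pair of largest subunits around a shared set of small ones, a heterodimer that starts assembly (Rpb3 and Rpb11 in II, Rpc40 and Rpc19 in I and III) and a stalk. Polymerases I and III make the RNA of ribosomes and tRNAs, and their subunit genes are classed in yeast with the genes of ribosome assembly, many of which carry a pair of promoter elements, the PAC element (named for polymerases A and C, older names of I and III) and the ribosomal RNA processing element (RRPE).

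The PAC core CGATGAG stood in the promoter of 9 of the 31 genes (29.0%), against 7.02% of 6001 protein-coding genes. A promoter here is the window of 250 bases before to 50 bases after the annotated gene start in the R64 genome, searched on both strands. The 9 matches were in 4 of 7 polymerase I genes, both genes shared by I and III and 3 of 10 polymerase III genes, and in none of the 7 polymerase II genes or the 5 genes shared by all 3. As PAC is named for polymerases I and III, a high share in their genes is not an independent finding. The RRPE core AAAATTT, which overlaps its own reverse complement in the run of 4 A and 4 T, was found in 22 of 31 (71.0%), against 1391 of 6001 (23.2%). It was present in 6 of 7 genes of I, 2 of 2 of I and III, 8 of 10 of III, 4 of 5 shared by all 3 and 2 of 7 of II. Both cores together stood in 8 of 31 promoters (25.8%), against 245 of 6001 (4.08%). The 9 PAC matches are shown because they mark which classes carry the element. Each is written 5′ to 3′ on the strand of its gene, with the PAC core in capitals, as CGATGAG or, where it lies on the other strand, CTCATCG:
RPA49 (chrXIV:182722-182750, minus strand): attttttattgCGATGAGctgaaattttc
RPA43 (chrXV:960348-960376, minus strand): tgaaaagattcCGATGAGggtgtatgggt
RPA34 (chrX:140315-140343, plus strand): aaaaattttatCGATGAGcattgaatagc
RPA14 (chrIV:769455-769483, plus strand): attatagaggtCTCATCGgtaaggcagag
RPC82 (chrXVI:919146-919174, minus strand): tttttcaaaagCTCATCGcattgaaggaa
RPC31 (chrXIV:348587-348615, minus strand): aaaatagtttcCTCATCGcagcaacctat
RPC25 (chrXI:176658-176686, minus strand): ttcaggcgatgCTCATCGcttaaaatttt
RPC40 (chrXVI:746902-746930, minus strand): aaaaattattgCGATGAGttgaaagaaaa
RPC19 (chrXIV:412632-412660, plus strand): atattcacctgCGATGAGctggaaaaaaa
The first base of the core lay between -194 (RPC25) and -59 (RPA14) relative to the gene start. A match describes letters in this window and is not evidence that a factor binds there. Some of the 9 cores lie between the starts of 2 genes that run in opposite directions. RPC25 is 299 bases from LTV1, RPA49 266 bases from CRS1 and RPC82 339 bases from QCR2. Such a core cannot be assigned to the subunit gene alone.

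The library totals of full-gene counts lay between 4860861 and 7803152, and the 31 genes took 0.443% to 0.616% of them. Counts of a member in a library ran from 32 (RPC17) to 11378 (RPA135). Levels are given as CPM, the counts of a gene divided by the library total times a factor from edgeR's TMM method. They are relative, so a lower level and a larger pool of other RNA cannot be told apart. The factors ran from 0.9032 (WT library 3) to 1.2087 (rpb1-TPY,FSP library 1). Unscaled, the 31 genes took 0.6158%, 0.4764% and 0.4905% of the rpb1-TPY,FSP libraries. They took 0.4871%, 0.4429% and 0.5353% in spt6-R,KK, and 0.5013%, 0.5924% and 0.5933% in WT, so these shares overlapped. Their summed CPM did not, at 5095 or less in both double mutants and 5452 or more in WT. Differences in unscaled shares were not tested. Differences between strains are log2 fold changes from edgeR's quasi-likelihood test, with a standard error (SE) worked out from its F statistic. The SE is the absolute log2 fold change divided by the square root of F. A gene passed the test where its p, adjusted by Benjamini and Hochberg over 5618 genes, was under 0.05. The WT library numbered 1 was lower for these genes than the other WT libraries: relative to the WT mean, the mean log2 level of the 31 genes was -0.144 in WT library 1, against 0.073 and 0.072 in WT libraries 2 and 3. The deposited description gives the full-gene counts as all signal within a gene and does not say whether they were counted by strand, so they may hold reads from the other strand. Among the members only RPA14 (YDR156W) overlaps another annotated gene, YDR157W. By the W that ends both names these genes lie on the same strand, so counting by strand would not separate their reads.

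Neither mutated gene can be checked for its change by a count of reads. SPT6 (chromosome VII, 720409 to 724764) had 137, 143 and 150 CPM in spt6-R, 153, 217 and 204 in spt6-KK and 125, 125 and 141 in spt6-R,KK. It had 269, 192 and 304 CPM in rpb1-TPY, 240, 267 and 231 in rpb1-FSP, 233, 165 and 187 in rpb1-TPY,FSP, and 232, 280 and 288 in WT. All 9 SPT6-mutant libraries lay below the 3 WT libraries. The mean of SPT6 was lowest in spt6-R,KK (130.1 ± 9.1 CPM, SD) and spt6-R (143.4 ± 6.6). It was much the same in rpb1-TPY,FSP (194.8 ± 34.7 CPM) and spt6-KK (191.5 ± 34.3), against 266.5 ± 30.1 in WT (SD, n = 3 each). SPT6 passed as lower in rpb1-TPY,FSP, but not without library 2 or 3 of that strain (adjusted p = 0.114 and 0.0722) or WT library 2 or 3 (0.0977 and 0.108). In spt6-KK it did not pass, while it did in some other settings, among them DESeq2 (0.0214). RPO21 (YDL140C, chromosome IV, 205360 to 210561), the Rpb1 gene, had 564, 556 and 589 CPM in spt6-R, 464, 423 and 461 in spt6-KK and 566, 488 and 513 in spt6-R,KK. It had 520, 352 and 555 CPM in rpb1-TPY, 541, 488 and 572 in rpb1-FSP, 488, 524 and 508 in rpb1-TPY,FSP, and 548, 530 and 532 in WT. The rpb1-TPY,FSP and spt6-KK libraries lay below and the spt6-R libraries above every WT library, by small margins, and the other strains overlapped WT. RPO21 did not pass in any mutant, with log2 fold changes against WT from -0.26 ± 0.12 (SE) in spt6-KK to 0.09 ± 0.12 in spt6-R.

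Of the 31 subunit genes 19 were lower in spt6-R,KK, where 17.5% of all genes tested were called lower. In rpb1-TPY,FSP 13 of 31 were lower, against a background of 16.4%. None of the 31 passed as higher in any of the 6 mutants, where 4.02% of all genes were higher in spt6-R, 6.35% in spt6-KK, 19.3% in spt6-R,KK, 0.0534% in rpb1-TPY, 0.89% in rpb1-FSP and 18.8% in rpb1-TPY,FSP. The median log2 fold change of the 31 genes was -0.49 in spt6-R,KK and -0.31 in rpb1-TPY,FSP, against 0.02 and 0.06 for all genes tested in the same strains. All libraries of the mutant lay below all WT libraries for 21 of 31 genes in spt6-R,KK, against 22.5% of all genes, and for 15 of 31 in rpb1-TPY,FSP, against 22.1%. The comparisons share the WT libraries. Most changes were small, the largest being that of RPO26 (-0.93 in spt6-R,KK, -0.84 in the rpb1 double mutant). Leaving out 1 library at a time, the count ran from 14 (without WT library 3) to 20 in spt6-R,KK. For rpb1-TPY,FSP it ran from 7 (without WT library 2 or 3) to 16 (without rpb1-TPY,FSP library 1), with 8 without rpb1-TPY,FSP library 2 and 9 without library 3.

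**Figure D1:**
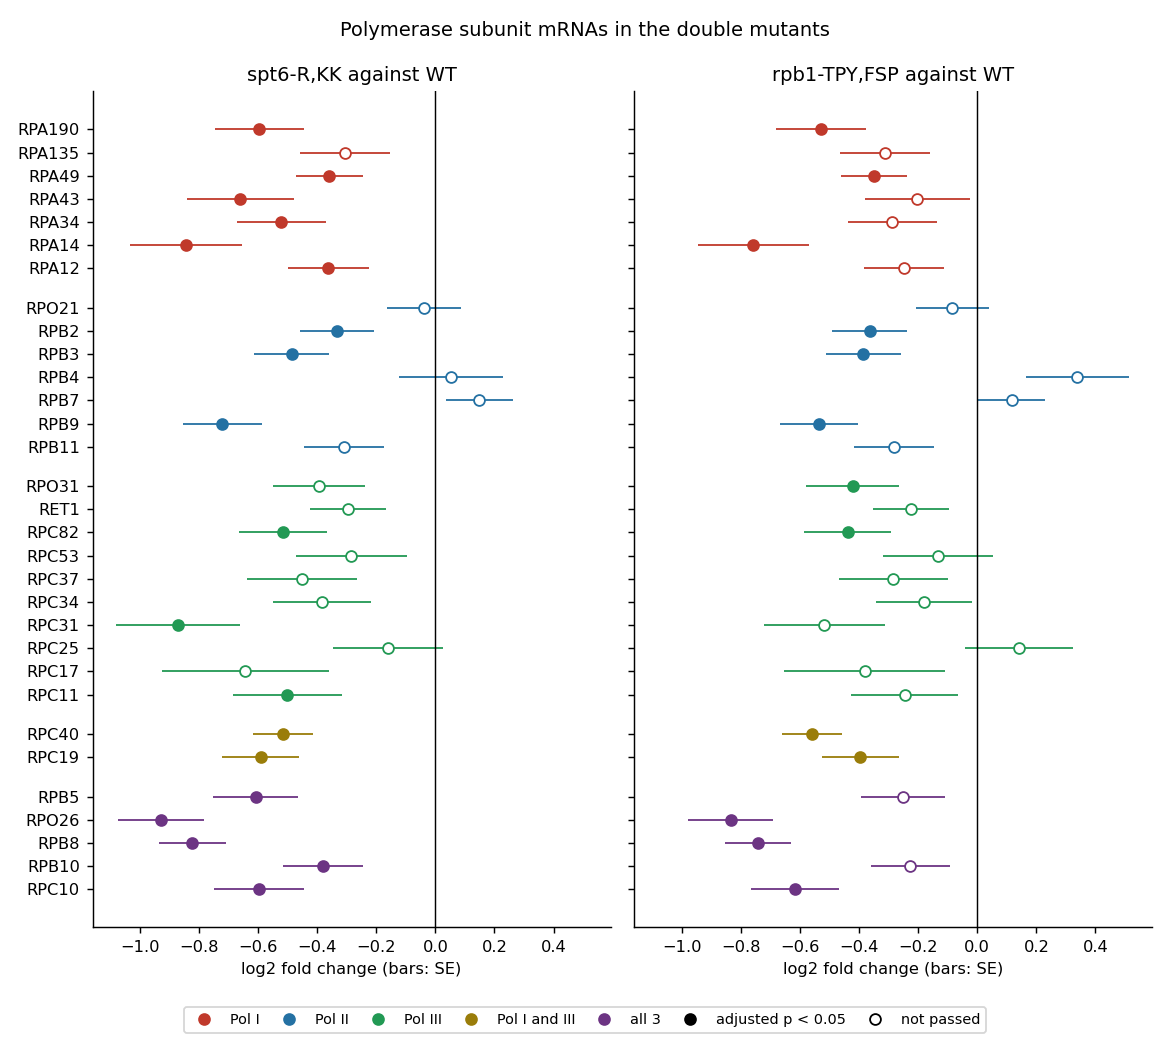
Log2 fold change of each of the 31 subunit genes in spt6-R,KK (left panel) and rpb1-TPY,FSP (right panel) against WT, with bars for the SE. Colours give the class, filled points passed at an adjusted p under 0.05, and every filled point lies below 0, while RPO21, RPB4 and RPB7 lie near or above 0 in both panels.

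Of the 7 genes of polymerase I only, 6 were lower in spt6-R,KK and 3 in rpb1-TPY,FSP, beside the backgrounds of 17.5% and 16.4% given above for all genes. RPA14 (YDR156W, chromosome IV, 769525 to 769938), a stalk subunit, fell most. RPA14 had 47.1, 59.4 and 34.6 CPM in spt6-R,KK, 43.0, 65.5 and 41.6 in rpb1-TPY,FSP and 71.4, 81.3 and 101 in WT. The log2 fold change of RPA14 was -0.85 ± 0.19 (adjusted p = 0.0016) in spt6-R,KK and -0.76 ± 0.19 (adjusted p = 0.00389) in rpb1-TPY,FSP, and all mutant libraries lay below the WT libraries. RPA190 (YOR341W, chromosome XV, 960987 to 965981), which encodes the largest subunit, was also lower in both, at -0.60 ± 0.15 (adjusted p = 0.0043) in spt6-R,KK and -0.53 ± 0.15 (adjusted p = 0.0103) in rpb1-TPY,FSP. RPA190 averaged 723 ± 92.2 CPM in spt6-R,KK and 758 ± 63.9 CPM in rpb1-TPY,FSP, against 1093 ± 138 CPM in WT (SD, n = 3 each). RPA135, the gene of the other large subunit and the member with the highest CPM (not corrected for length), had 1381, 1028 and 1106 CPM in spt6-R,KK, 1207, 1178 and 1118 in rpb1-TPY,FSP and 1237, 1491 and 1621 in WT. Its libraries overlapped in spt6-R,KK and not in rpb1-TPY,FSP, and it passed in neither (-0.31 ± 0.15 in both, adjusted p = 0.12 and 0.117), although without spt6-R,KK library 1 it did in that strain (adjusted p = 0.0408).

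The other stalk gene, RPA43 (YOR340C, chromosome XV, 959202 to 960182), lies head to head with RPA190, with 804 bases between their starts. RPA43 had 43.0, 51.0 and 65.6 CPM in spt6-R,KK, 86.0, 66.4 and 66.5 in rpb1-TPY,FSP and 69.5, 92.0 and 91.1 in WT. It was lower in spt6-R,KK (-0.66 ± 0.18, adjusted p = 0.00731), where no library overlapped WT, and did not pass in rpb1-TPY,FSP (-0.20 ± 0.18, adjusted p = 0.399). RPA49 and RPA34 encode a heterodimer related to general initiation factors of polymerase II. RPA49 was lower in both double mutants (-0.36 and -0.35), but neither call held without WT library 2 (adjusted p = 0.062 in spt6-R,KK and 0.0705 in rpb1-TPY,FSP) or WT library 3 (0.0973 and 0.113). The call in spt6-R,KK did not hold without its library 1 (0.0562), nor the call in rpb1-TPY,FSP without its library 2 or 3 (0.0516 and 0.061). RPA34 was lower in spt6-R,KK (-0.52, adjusted p = 0.0108) and had -0.29 in rpb1-TPY,FSP (adjusted p = 0.145), where it passed without library 1 of that strain (-0.50, adjusted p = 0.00924). RPA12, the RNA cleavage subunit, was lower in spt6-R,KK (-0.36, adjusted p = 0.0421). Without spt6-R,KK library 2 or 3 (adjusted p = 0.0861 and 0.17) and without WT library 2 or 3 (0.155 and 0.117) RPA12 was not called.

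Of the 7 genes of polymerase II only, 3 were lower in each double mutant, and RPB4 and RPB7 had positive values in both; 17.5% and 16.4% of all genes were lower there. RPB9 (YGL070C, chromosome VII, 374459 to 374827), a small subunit with a part in start site choice and fidelity, fell most. RPB9 had 23.4, 35.5 and 28.9 CPM in spt6-R,KK, 35.6, 34.8 and 29.4 in rpb1-TPY,FSP and 44.2, 49.6 and 51.0 in WT, so the mutant libraries lay below every WT library. Its log2 fold change was -0.72 ± 0.13 (adjusted p = 0.000282) in spt6-R,KK and -0.54 ± 0.13 (adjusted p = 0.00367) in rpb1-TPY,FSP. RPB3, of the assembly heterodimer, was lower at -0.49 (adjusted p = 0.00511) in spt6-R,KK and at -0.39 (adjusted p = 0.022) in rpb1-TPY,FSP. Its partner RPB11 had -0.31 and -0.28 and did not pass, except in spt6-R,KK without its library 2 (adjusted p = 0.021). RPB2, the second-largest subunit, was lower in both (-0.33, adjusted p = 0.044, and -0.36, adjusted p = 0.0305). In rpb1-TPY,FSP RPB3 was not called without library 2 of that strain (adjusted p = 0.0689) or without WT library 2 or 3 (0.0737 and 0.105), and RPB2 was not called without the same libraries (0.107, 0.0792 and 0.0941). In spt6-R,KK RPB2 was not called without library 1 or 2 of that strain (0.0585 and 0.159) or without WT library 2 or 3 (0.107 and 0.124).

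RPO21, RPB11 and the stalk genes RPB4 and RPB7 of polymerase II passed in neither double mutant. RPO21 had -0.04 ± 0.12 in spt6-R,KK (adjusted p = 0.838) and -0.08 ± 0.12 in rpb1-TPY,FSP (adjusted p = 0.628). RPB4 (YJL140W, chromosome X, 150961 to 151626), a stalk subunit that can leave the enzyme, had 30.9, 42.1 and 46.4 CPM in spt6-R,KK, 60.4, 42.1 and 42.9 in rpb1-TPY,FSP and 36.1, 45.2 and 33.7 in WT. The libraries overlapped, and RPB4 passed in neither strain (0.05 ± 0.18, adjusted p = 0.845, and 0.34 ± 0.17, adjusted p = 0.139). Its partner RPB7 (YDR404C, chromosome IV, 1276654 to 1277169) had 147, 132 and 111 CPM in spt6-R,KK, 121, 145 and 115 in rpb1-TPY,FSP and 114, 115 and 123 in WT. RPB7 overlapped between strains too, at 0.15 ± 0.11 (adjusted p = 0.322) in spt6-R,KK and 0.12 ± 0.11 (adjusted p = 0.449) in rpb1-TPY,FSP. In the stalk of polymerase III, RPC25 (-0.16 in spt6-R,KK and 0.14 in rpb1-TPY,FSP) and RPC17 (-0.64 and -0.38) did not pass either. RPC17 passed in spt6-R,KK with a replicate block (adjusted p = 0.0442) or without library 1 of that strain (-0.84, adjusted p = 0.0404), and in the rpb1 double mutant without its own library 1 (-0.75, adjusted p = 0.0466). It had the lowest CPM of the members, and its SE of 0.28 in spt6-R,KK was the largest of the 31.

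**Figure D2:**
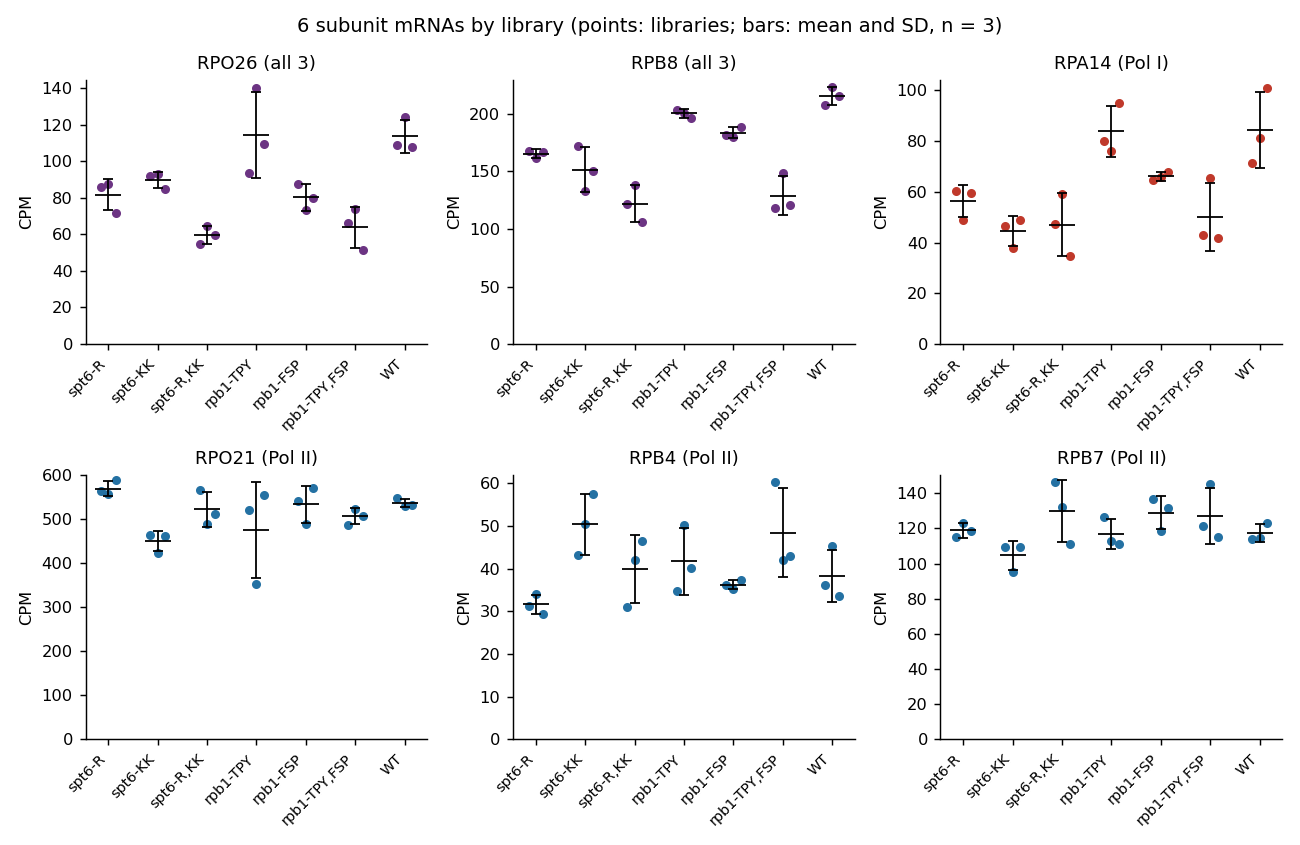
CPM of 6 subunit genes in every library of the 7 strains (points), with the mean and SD of each strain (bars, n = 3). RPO26, RPB8 and RPA14 are lower in all 6 libraries of the double mutants than in any WT library, RPB4 and RPB7 overlap WT in both double mutants, and RPO21 overlaps WT in spt6-R,KK and lies at most 524 CPM in rpb1-TPY,FSP, against 530 CPM or more in WT.

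Of the 10 genes of polymerase III only, 3 were lower in spt6-R,KK and 2 in rpb1-TPY,FSP (17.5% and 16.4% of all genes), so nothing is read from these counts. Values were negative in all 10 in spt6-R,KK (median -0.422) and in 9 in rpb1-TPY,FSP (median -0.265). Of all 5618 genes 2702 and 2539 were negative there, with medians of 0.02 and 0.058. The SE of the 10 genes ran from 0.129 to 0.282 in spt6-R,KK. RPC31 (YNL151C, chromosome XIV, 347766 to 348521), of the heterotrimer used in initiation, had 16.4, 20 and 16.3 CPM in spt6-R,KK, 29.2, 18.9 and 18.6 in rpb1-TPY,FSP and 25, 38.1 and 33.3 in WT. It was lower in spt6-R,KK (-0.87 ± 0.21, adjusted p = 0.00288), where no library overlapped WT. In rpb1-TPY,FSP library 1 lay above WT library 1, and RPC31 did not pass (-0.52 ± 0.20, adjusted p = 0.0541), while it did without that library (0.00842), without WT library 1 (0.0231), by DESeq2 (0.0312), with DESeq2 size factors (0.037) and with no filter on low counts (0.0447). RPC82 (YPR190C, chromosome XVI, 917077 to 919041), of the same heterotrimer, had 57.2, 51.3 and 59.2 CPM in spt6-R,KK, 70.8, 53.5 and 52.5 in rpb1-TPY,FSP and 64.5, 84.2 and 92.0 in WT. It was lower in both double mutants (-0.52, adjusted p = 0.00994, and -0.44, adjusted p = 0.0261). RPC82 was not called in spt6-R,KK without WT library 3 (adjusted p = 0.0604), nor in rpb1-TPY,FSP without its library 2 or 3 (0.0725 and 0.0832) or WT library 2 or 3 (0.085 and 0.13). By mid-gene sense counts it passed in neither (0.0536 and 0.0966).

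RPC34, the remaining gene of that heterotrimer, had -0.38 in spt6-R,KK (adjusted p = 0.0755) and -0.18 in rpb1-TPY,FSP (adjusted p = 0.415). RPO31, which encodes the largest subunit, passed in rpb1-TPY,FSP (-0.42, adjusted p = 0.0422) and had -0.39 in spt6-R,KK (adjusted p = 0.0551). In spt6-R,KK RPO31 passed by DESeq2 (0.0473), with upper-quartile scaling (0.0348), mid-gene sense counts (0.0425) or a replicate block (0.0353), and without library 1 of that strain (0.0138) or WT library 1 (0.0264). Without rpb1-TPY,FSP library 2 or 3 (adjusted p = 0.09 and 0.0953) and without WT library 2 or 3 (0.112 and 0.163) RPO31 was not called in the rpb1 double mutant. RET1, the other large subunit, had -0.30 and -0.22 and did not pass, except in spt6-R,KK without WT library 1 (0.0475). RPC11, the subunit for RNA cleavage, passed in spt6-R,KK (-0.50, adjusted p = 0.0389), but not without library 1 or 3 of that strain (0.125 and 0.0685) or WT library 1 or 3 (0.0905 and 0.122). RPC25 had 17.3, 24 and 23.7 CPM in spt6-R,KK, 32.8, 23.5 and 23.6 in rpb1-TPY,FSP and 21.8, 26.4 and 24.6 in WT. The heterodimer gene RPC53 had 31.6, 30.3 and 45.4 CPM in spt6-R,KK, 49.8, 33.2 and 36.0 in rpb1-TPY,FSP and 35.0, 50.2 and 45.8 in WT. The strains overlapped in both genes, and in both the rpb1-TPY,FSP library numbered 1 was the highest of its strain. RPC37, the partner of RPC53, had -0.45 in spt6-R,KK (adjusted p = 0.065; 0.0396 with a replicate block, 0.0124 without library 3 of that strain, 0.0429 without WT library 1) and -0.28 in rpb1-TPY,FSP (adjusted p = 0.242).

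Both genes shared by polymerases I and III were lower in both double mutants, beside 17.5% of all genes in spt6-R,KK and 16.4% in rpb1-TPY,FSP. RPC40 (YPR110C, chromosome XVI, 745828 to 746835) had 194, 186 and 179 CPM in spt6-R,KK, 193, 181 and 169 in rpb1-TPY,FSP and 237, 285 and 278 in WT. All 6 libraries of the double mutants lay below WT, with -0.52 ± 0.10 (adjusted p = 0.000479) in spt6-R,KK and -0.56 ± 0.10 (adjusted p = 0.00023) in rpb1-TPY,FSP. RPC19 (YNL113W, chromosome XIV, 412771 to 413199) had 39.8, 49.6 and 40.5 CPM in spt6-R,KK, 56.2, 48.5 and 43.6 in rpb1-TPY,FSP and 58.0, 71.0 and 66.5 in WT. These again did not overlap, with -0.59 ± 0.13 (adjusted p = 0.00141) and -0.40 ± 0.13 (adjusted p = 0.022). In rpb1-TPY,FSP RPC19 was not called without library 3 of that strain (adjusted p = 0.0836) or without WT library 2 or 3 (0.101 and 0.059).

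Of the 5 genes shared by all 3 polymerases, all were lower in spt6-R,KK and 3 in rpb1-TPY,FSP, with the same backgrounds of 17.5% and 16.4%. RPO26 (YPR187W, chromosome XVI, 911257 to 911800), which encodes the subunit also called Rpb6 and is the only member with 2 coding exons, had 54.8, 64.6 and 59.8 CPM in spt6-R,KK, 66.1, 73.6 and 51.5 in rpb1-TPY,FSP and 109, 124 and 108 in WT. Its highest double mutant library was far below its lowest WT library, and the log2 fold change was -0.93 ± 0.15 (adjusted p = 5.18e-05) in spt6-R,KK and -0.84 ± 0.14 (adjusted p = 0.000153) in rpb1-TPY,FSP. RPB8 (YOR224C, chromosome XV, 760825 to 761265) had 122, 138 and 106 CPM in spt6-R,KK, 118, 149 and 120 in rpb1-TPY,FSP and 208, 224 and 216 in WT. RPB8 gave the smallest adjusted p of the 31 in both, at -0.82 ± 0.11 (adjusted p = 1.14e-05) in spt6-R,KK and -0.74 ± 0.11 (adjusted p = 3.46e-05) in rpb1-TPY,FSP. RPC10, the gene of the subunit also called Rpb12, was lower by a like amount in both (-0.60, adjusted p = 0.00411, and -0.62, adjusted p = 0.00325).

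RPB5 (YBR154C, chromosome II, 548362 to 549009) had 51.0, 59.9 and 62.5 CPM in spt6-R,KK, 86.5, 70.2 and 65.2 in rpb1-TPY,FSP and 85.9, 93.4 and 85.0 in WT. It was lower in spt6-R,KK (-0.61, adjusted p = 0.00242), while in rpb1-TPY,FSP library 1 lay among the WT libraries and RPB5 did not pass (-0.25, adjusted p = 0.179), though it did once library 1 was left out in this strain and in spt6-R,KK together (0.0463). RPB10 (YOR210W, chromosome XV, 738320 to 738532) had 43.1, 58.3 and 57.9 CPM in spt6-R,KK, 62.5, 59.4 and 55.3 in rpb1-TPY,FSP and 67.8, 75.5 and 63.8 in WT. Its libraries did not overlap in either comparison. RPB10 passed in spt6-R,KK (-0.38, adjusted p = 0.0312) and not in rpb1-TPY,FSP (-0.23, adjusted p = 0.195). In spt6-R,KK RPB10 was not called without library 1 of that strain (adjusted p = 0.159) or without WT library 1 or 2 (0.054 and 0.133).

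Averaged over its members in each library and set against the WT mean, the class shared by all 3 polymerases was lowest in both double mutants. Its mean log2 level was -0.670 ± 0.098 (SD over 3 libraries) in spt6-R,KK and -0.537 ± 0.119 in rpb1-TPY,FSP, against a WT spread of 0.082. Polymerase II genes were at -0.246 ± 0.047 and -0.175 ± 0.069, against a WT spread of 0.055. Polymerase I genes were at -0.524 ± 0.020 and -0.386 ± 0.105, with a WT spread of 0.198, and genes shared by I and III at -0.551 ± 0.091 and -0.478 ± 0.139, with a WT spread of 0.144. Polymerase III genes were at -0.454 ± 0.096 in spt6-R,KK and -0.282 ± 0.241 in rpb1-TPY,FSP, with a WT spread of 0.162. In rpb1-TPY,FSP the polymerase III mean was -0.004 in library 1, against -0.437 and -0.404 in libraries 2 and 3. For polymerase I genes the WT libraries were at -0.225, 0.075 and 0.150, so that WT library 1 lay close to the single mutants. Differences between classes were not tested.

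**Figure D3:**
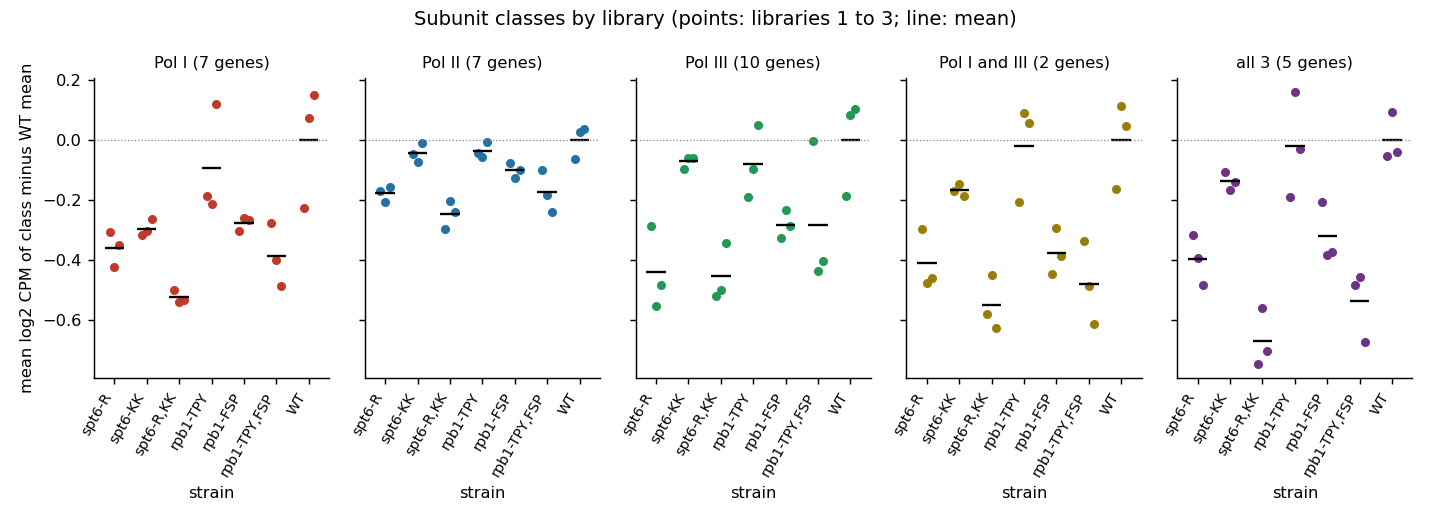
Mean log2 CPM of the members of each class in every library, minus the mean of the 3 WT libraries (points), with the strain mean (line), for the 7 strains. The spt6-R,KK libraries lie below all WT libraries in every class, from -0.246 on average for polymerase II to -0.670 for the subunits shared by all 3.

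Among the single mutants, spt6-R had the most changes. In spt6-R 7 of 31 genes were lower, against a background of 4.47%, and the median log2 fold change was -0.38, against -0.02 for all genes. RPC19 gave the smallest adjusted p, with 48.3, 41.0 and 38.8 CPM in spt6-R (-0.61 ± 0.13, adjusted p = 0.00813). RPC82 had 60.1, 48.2 and 55.0 CPM (-0.56, adjusted p = 0.0269), and the polymerase I gene RPA34 (YJL148W, chromosome X, 140437 to 141138) had 50.7, 45.4 and 50.3 CPM in spt6-R, against 60.2, 74.9 and 76.3 in WT (-0.53, adjusted p = 0.0369). RPB5 had 65.6, 56.6 and 66.9 CPM in spt6-R (-0.48, adjusted p = 0.0417), RPO26 had 85.8, 87.7 and 71.8 (-0.48, adjusted p = 0.0453), RPB9 had 37.0, 32.8 and 34.8 (-0.47, adjusted p = 0.0345) and RPB8 had 168, 161 and 167 (-0.38, adjusted p = 0.0393). For each of these 7 genes all spt6-R libraries lay below all WT libraries, as they did for 20 of the 31 and for 19.6% of all genes. The calls depended on the libraries: none was left without spt6-R library 3 or WT library 2, and 1 (RPC19) without spt6-R library 2 or WT library 3, while 5 were called without spt6-R library 1 and 9 without WT library 1. By mid-gene sense counts 2 genes were lower.

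In spt6-KK 2 of 31 genes were lower, against a background of 6.94%, and the median was -0.12, against 0.05 for all genes. It was -0.195 without spt6-KK library 1, -0.186 without WT library 1 and -0.062 without WT library 2. RPA14 had 46.7, 38.0 and 49.0 CPM in spt6-KK (-0.92 ± 0.19, adjusted p = 0.00383), and RPB8 had 172, 133 and 150 (-0.51 ± 0.11, adjusted p = 0.006). The libraries of both genes lay below WT, as in spt6-R,KK. The count was 1 without spt6-KK library 2, where RPB8 had an adjusted p of 0.0525, 3 without spt6-KK library 1 and 5 without WT library 1. Every spt6-KK library lay below every WT library for 8 of the 31 genes and above for 2. The matching shares of all genes were not counted in this strain. The 2 above were RPC11 and RPB10. RPC11 had 34.3, 31.5 and 33.3 CPM in spt6-KK, against 24.8, 21.2 and 26.6 in WT, and did not pass (0.45 ± 0.18, adjusted p = 0.0911). RPB10, at 79.5, 79.4 and 79.9 CPM in spt6-KK, did not pass either (0.20, adjusted p = 0.319).

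In rpb1-FSP 1 of 31 genes was lower, against a background of 1.46%, and the median was -0.24, against 0.00 for all genes. That gene was RPC19, with 41.2, 47.4 and 46.0 CPM, below every WT library (-0.54 ± 0.13, adjusted p = 0.0318). It was not called without any of the 3 rpb1-FSP libraries (adjusted p = 0.121, 0.0682 and 0.106 without library 1, 2 and 3) or without WT library 2 or 3 (0.174 and 0.109). Values were negative in 30 of 31 genes, RPB7 (0.14) being the exception, and in 2842 of all 5618 genes, all of them against the same WT libraries. In rpb1-TPY none of the 31 genes passed by edgeR or by DESeq2, and none had an unadjusted p under 0.05 by edgeR, where 0.0534% of all genes were called. The median was -0.04, against 0.00 for all genes, and its sign was not stable: it was 0.001 with upper-quartile scaling, 0.019 without rpb1-TPY library 1 and 0.006 without WT library 3, and -0.125 without WT library 1. Values ran from -0.25 (RPA135) to 0.12 (RPB4). Library 2 of rpb1-TPY was the lowest of the 21 libraries in the large subunit genes RPO21 (352 CPM), RPA135 (861 CPM) and RPO31 (300 CPM), against 520 and 555, 1294 and 1490, and 441 and 516 CPM in rpb1-TPY libraries 1 and 3. The other large subunit genes, RPA190 (678 CPM), RPB2 (306) and RET1 (157), were lowest of that strain there, but not of the 21 libraries. RPA190 had 621 CPM and RET1 137 in spt6-R,KK library 2, and RPB2 had 275 in rpb1-TPY,FSP library 2. For the genes shared by all 3 polymerases, rpb1-TPY library 2 had the highest mean log2 level of the 21, at 0.16 relative to the WT mean.

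**Figure D4:**
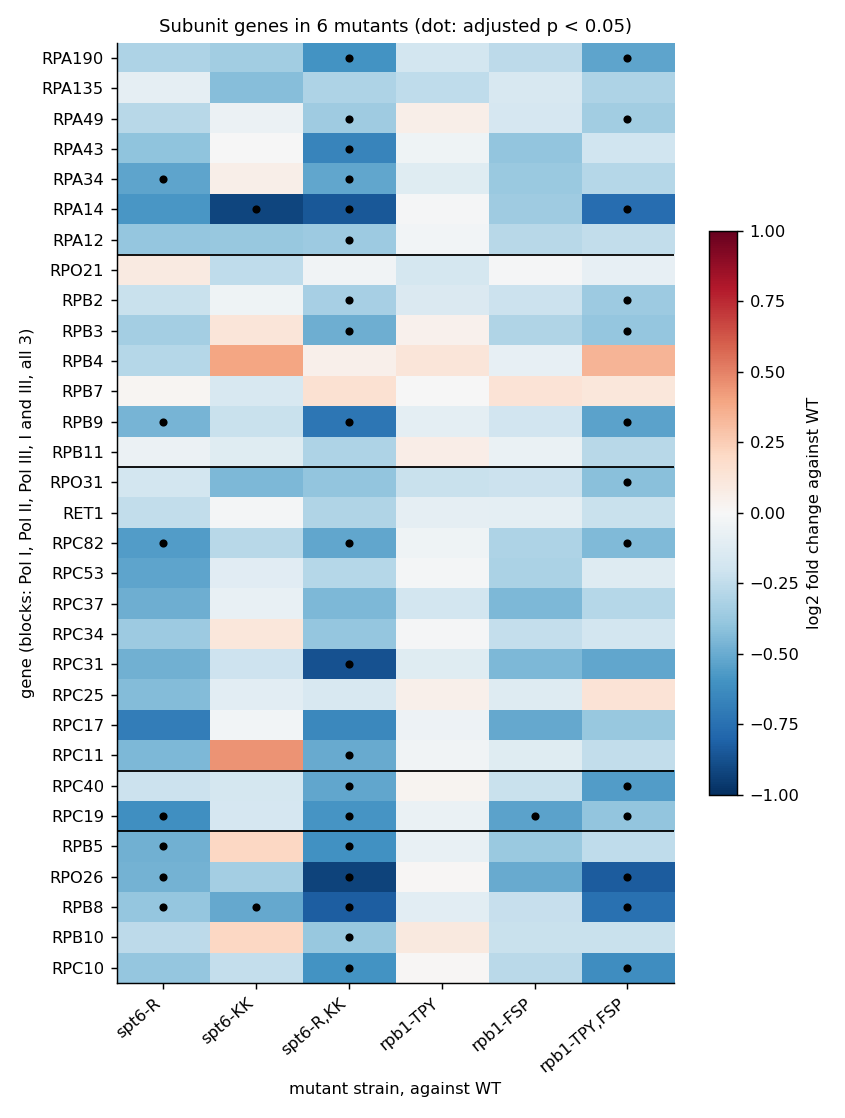
Log2 fold change against WT of the 31 subunit genes (rows, in blocks by class) in the 6 mutants (columns), in blue for lower and red for higher. Dots mark an adjusted p under 0.05: there are 7 in spt6-R, 2 in spt6-KK, 19 in spt6-R,KK, none in rpb1-TPY, 1 in rpb1-FSP and 13 in rpb1-TPY,FSP, all of them on blue cells.

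Whether the double mutants departed from the sum of their singles on the log2 scale was tested as an interaction. For spt6-R and spt6-KK none of the 31 passed by edgeR or DESeq2, where edgeR called 0.356% of all genes, and 1 had an unadjusted p under 0.05. That was RPA14 (0.66 ± 0.27, adjusted p = 0.243), for which the sum of the single effects, -0.58 in spt6-R and -0.92 in spt6-KK, lay below the -0.85 of spt6-R,KK. For rpb1-TPY and rpb1-FSP none passed by edgeR or DESeq2 either, where edgeR called 3.19% of all genes, and 2 had an unadjusted p under 0.05, RPC40 (-0.37 ± 0.14, adjusted p = 0.179) and RPB8 (-0.40 ± 0.16, adjusted p = 0.183). RPC40 was at 0.03 in rpb1-TPY and -0.22 in rpb1-FSP, beside -0.56 in rpb1-TPY,FSP, and RPB8 at -0.11 and -0.23, beside -0.74. The SE of these interactions ran from 0.143 to 0.397, and a p that misses the threshold does not show that effects add up.

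Set directly against rpb1-TPY,FSP, spt6-R,KK differed in none of the 31 genes by edgeR or DESeq2, where edgeR called 0.0356% of all genes, and 2 had an unadjusted p under 0.05. These were RPA43 (-0.46 ± 0.18) and RPB5 (-0.36 ± 0.14), both with an adjusted p of 0.995. Values ran from -0.46 in RPA43 to 0.05 in RPO21, and 24 of 31 were negative. A p that misses the threshold does not show that the double mutants are alike. For RPB8, with an SE of 0.11, the difference was -0.08.

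Per kilobase of coding length, a rough scale for comparing different genes, subunit mRNAs in WT spanned 18.8-fold, from 26.1 CPM per kb in RPC17 to 489 in RPB8. The median was 243 CPM per kb for subunits shared by all 3 polymerases, 208 for those shared by I and III, 204 for polymerase I, 111 for II and 41.1 for III. RPO31 (112 CPM per kb) was the highest of polymerase III, and RPA135 (401) that of polymerase I. Within polymerase II the order in WT was RPB7 (227 ± 10.1, SD, n = 3), RPB11 (141 ± 11.4), RPB9 (131 ± 9.74), RPB2 (111 ± 6.40), RPO21 (103 ± 1.84), RPB3 (61.5 ± 8.16) and RPB4 (57.6 ± 9.12). RPB11 and RPB9, RPB2 and RPO21, and RPB3 and RPB4 differed from each other by less than the sum of their SDs. In spt6-R,KK the level of RPB9 was 79.4 ± 16.4 CPM per kb, between those of RPO21 (100 ± 7.64) and RPB4 (59.8 ± 12), and in rpb1-TPY,FSP it was 90.1 ± 9.22. RPB8 was at 277 ± 36.0 CPM per kb in spt6-R,KK and 293 ± 38.5 in rpb1-TPY,FSP, against 489 ± 18.1 in WT, and RPO26 at 128 ± 10.4 and 136 ± 24, against 243 ± 19.2. Lengths are those of the coding sequence, so untranslated regions are not counted. The scale also does not treat short and long genes alike. Sense reads over the middle 70% of the gene made up 99.93% of the full-gene counts in RPB8 (441 bases) and 70.1% in RPA190 (4995 bases). The genes shared by all 3 polymerases are short, from 213 bases (RPB10 and RPC10) to 648 (RPB5), so the order of the class medians may partly reflect gene length, which was not tested.

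**Figure D5:**
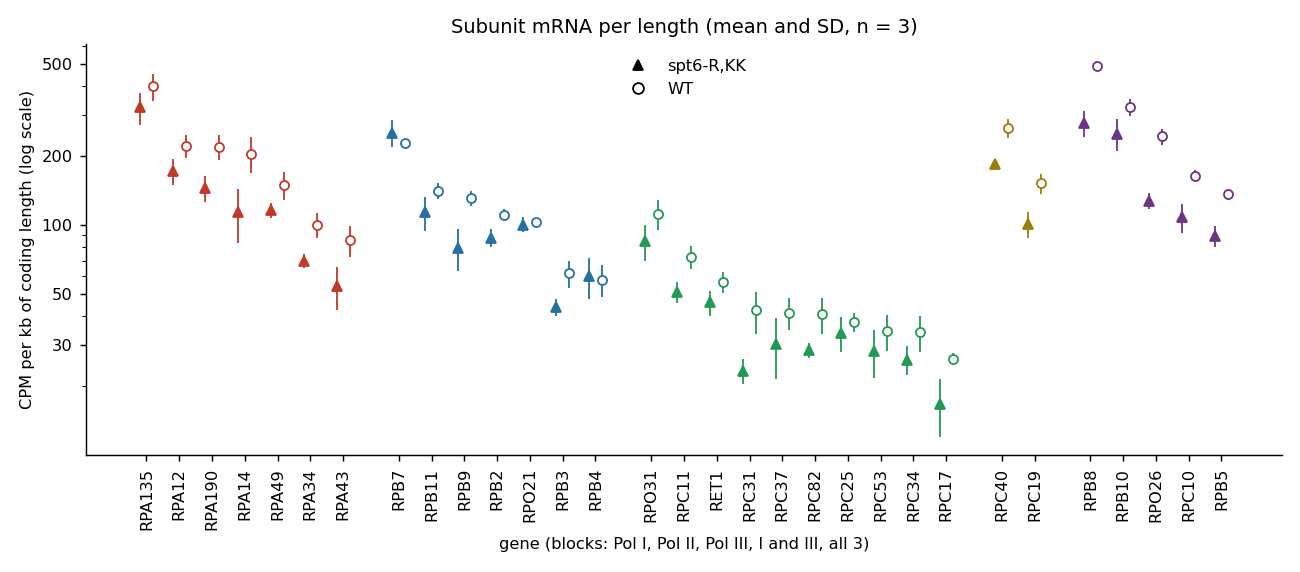
Level of each of the 31 subunit mRNAs per kb of coding length (log axis) in spt6-R,KK (triangles) and WT (circles), as mean and SD of 3 libraries, in blocks by class and ordered by the WT level. WT levels run from 26.1 CPM per kb in RPC17 to 489 in RPB8, and the triangles lie below the circles except in RPB7 and RPB4.

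The promoter classes described above can be read beside these values. Of all genes tested, with or without a core, 17.5% were lower in spt6-R,KK and 16.4% in rpb1-TPY,FSP. Of the 9 genes with a PAC core, 8 were lower in spt6-R,KK (median -0.52), as were 11 of the 22 without it (median -0.39), RPC25 being the gene with the core that did not pass. In rpb1-TPY,FSP 5 of 9 with the core were lower (median -0.40), and 8 of 22 without it (median -0.28). The genes with the smallest adjusted p, RPB8 and RPO26, have no PAC core in their window. Of the 22 genes with an RRPE core 14 were lower in spt6-R,KK (median -0.51), as were 5 of the 9 without it (median -0.36), and in rpb1-TPY,FSP the counts were 10 of 22 (median -0.30) and 3 of 9 (median -0.36). RPO21 has RRPE matches and no PAC match. Differences between genes with and without a core were not tested. The same split was not made for genes outside the subunits, so nothing is read from these counts about the cores.

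Genes whose products work with the polymerases were counted in the same fit. Among 9 genes for assembly and nuclear import of the enzymes, 2 were lower and none higher in spt6-R,KK (median -0.22), namely RTR2 (-1.02, adjusted p = 0.00778), whose relative RTR1 encodes a phosphatase of the Rpb1 tail, and NPA3 (-0.44, adjusted p = 0.0109), a GTPase gene for import of polymerase II. The share of all genes called lower there was 17.5%, near that of the list. In rpb1-TPY,FSP the same count was 2 of 9 (median 0.04), against 16.4% of all genes, with RTR2 at -0.86 (adjusted p = 0.0175) and NPA3 at -0.35 (adjusted p = 0.0392). Of 10 polymerase I factors 2 were lower and 1 higher in spt6-R,KK (median -0.26), and 1 lower and 1 higher in rpb1-TPY,FSP (median -0.12). Of all genes 17.5% were lower and 19.3% higher in spt6-R,KK, and 16.4% lower and 18.8% higher in the rpb1 double mutant. HMO1, an HMG-box protein of ribosomal RNA and ribosomal protein genes, was at -1.19 (adjusted p = 1.05e-06) in spt6-R,KK and -1.21 (adjusted p = 8.67e-07) in rpb1-TPY,FSP. RRN7, of the core factor, was higher in both (0.75, adjusted p = 0.00382, and 0.91, adjusted p = 0.000746), and SPT15, which encodes the TATA-binding protein used by all 3 enzymes, was lower in spt6-R,KK (-0.42, adjusted p = 0.0398).

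None of 9 polymerase III factors and none of 19 general factors of polymerase II passed in spt6-R,KK by edgeR (medians -0.05 and -0.09), and 2 and 0 of them had an unadjusted p under 0.05. In that strain 17.5% of all genes were lower and 19.3% higher. In rpb1-TPY,FSP the polymerase III factor BRF1 was higher (0.50, adjusted p = 0.0119; list median -0.09). Of the polymerase II factors TFA2 of TFIIE and SSL1 of TFIIH were lower (-0.40 each, adjusted p = 0.0354 and 0.0372), and TFB1 of TFIIH was higher (0.46, adjusted p = 0.0455; list median 0.17). With 16.4% of all genes lower and 18.8% higher in rpb1-TPY,FSP, these counts are under the shares of all genes, and nothing is read from them about the factors. Among 29 genes of ribosome assembly, 24 were lower in spt6-R,KK (median -0.69) and 19 in rpb1-TPY,FSP (median -0.51), beside 17.5% and 16.4% of all genes. Of 138 genes picked as ribosomal protein genes by symbol alone (RPL, RPS and RPP0 to RPP2), 135 were lower in each double mutant, with medians of -1.03 and -1.09. The symbol RPP1, which is not that of a ribosomal protein gene, also fits this pattern. The medians of the ribosome assembly and ribosomal protein lists lie below those of the polymerase subunits given above.

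BPL1 (YDL141W, chromosome IV, 203039 to 205111), a biotin ligase gene, lies tail to tail with RPO21, with 248 bases between the gene ends, and was lower in rpb1-FSP and rpb1-TPY,FSP. BPL1 had 134, 124 and 135 CPM in spt6-R, 109, 97.8 and 112 in spt6-KK, and 154, 125 and 131 in spt6-R,KK. It had 93.4, 67.1 and 86.8 CPM in rpb1-TPY, 74.3, 62.0 and 74.2 in rpb1-FSP and 71.9, 88.6 and 86.5 in rpb1-TPY,FSP, against 124, 123 and 110 in WT. All 9 RPB1-mutant libraries lay below all WT libraries. The fall passed in rpb1-FSP (-0.76 ± 0.13, adjusted p = 0.00199) and rpb1-TPY,FSP (-0.53 ± 0.13, adjusted p = 0.00277) and not in rpb1-TPY (-0.53 ± 0.13, adjusted p = 0.661), where few genes of the whole table were called. In the SPT6 mutants BPL1 did not pass (0.13 in spt6-R, -0.16 in spt6-KK and 0.20 in spt6-R,KK). Beside it, RPO21 in the same RPB1 mutants was at -0.17, -0.01 and -0.08.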

How the data were processed

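Raw read counts per gene were deposited by the authors for 21 libraries in tables of full-gene signal and of sense reads over the middle 70% of genes. Per the submitters' processing notes, cutadapt 1.16, STAR 2.6.1b, featureCounts 1.6.3 and DESeq2 1.22.2 were used with the R64 (sacCer3) genome; Subread is named without a version. The members and gene lists were chosen with earlier results of these data known. Full-gene counts of 5823 genes were fitted with edgeR 4.0.16 in R 4.3.3: genes with low counts were dropped by filterByExpr (205, leaving 5618), libraries were scaled by TMM, and the quasi-likelihood test was used with all 21 libraries in 1 model with strain as its only term (biological coefficient of variation 0.154), over 9 contrasts. Class levels are means of log2 CPM with a prior count of 2. DESeq2 1.42.0, other scalings, no filter, mid-gene counts, a replicate block, fewer strains and each library left out were the alternatives. Coordinates, coding lengths and promoter windows come from the RefSeq R64 annotation and genome, which held 5623 of the 5823 identifiers and all 31 members. Values in every library are given for RPO21, SPT6 and BPL1, for the members with the largest and smallest change of each class in the double mutants, and for members called in a single mutant; those of RPB4, RPB7, RPC11, RPB10 in spt6-KK and the large subunits in rpb1-TPY were added after the values were seen. No libraries were identical. Same-numbered libraries of spt6-R,KK and rpb1-TPY,FSP deviated together (correlations 0.367, 0.442 and 0.375), so the numbers pair these strains, while no mutant was paired with WT. Counting error and the number of libraries limit the precision, and the identity of reads shared with overlapping genes is not given in the sources used here.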

Additional observations from a re-analysis of the deposited data

Results flagged for a closer look

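Both results here concern BPL1, the neighbour of RPO21, for which a difference between groups passed a test of the difference itself. The effect of rpb1-TPY,FSP on BPL1 differed from the sum of the single effects by 0.76 ± 0.18 on the log2 scale (edgeR adjusted p = 0.0222): rpb1-TPY was at -0.53, rpb1-FSP at -0.76 and rpb1-TPY,FSP at -0.53, against WT. The call was lost by mid-gene sense counts (adjusted p = 0.0539), with only these strains in the fit (0.0682), and without rpb1-TPY library 2 (0.0525), rpb1-FSP library 2 (0.0781), rpb1-TPY,FSP library 2 (0.0708) or 3 (0.0774), or WT library 1 (0.0585) or 2 (0.058). BPL1 was also higher in spt6-R,KK than in rpb1-TPY,FSP, by 0.73 ± 0.13 (adjusted p = 0.031), with no overlap between the libraries. Without any of the 6 libraries of these strains that call was lost (adjusted p from 0.055 without spt6-R,KK library 2 to 0.518 without rpb1-TPY,FSP library 1), as it was without the libraries numbered 1 of both (0.719), by mid-gene sense counts (0.0505) and with only these strains in the fit (0.999). How the RPB1 alleles were introduced beside BPL1 is not given in the sources used here, and its part in these values was not tested.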

How the results depend on the processing

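No called gene changed direction under an alternative, while the median of the 31 genes in rpb1-TPY changed sign (0.001 with upper-quartile scaling, 0.019 and 0.006 without a library). In spt6-R,KK 13 of the 19 lower genes passed in every setting, as did 7 of 13 in rpb1-TPY,FSP, RPA14 alone in spt6-KK and none in spt6-R or rpb1-FSP. Counts of lower genes moved by over 1.5 times in spt6-R with mid-gene counts (2), in spt6-KK with DESeq2 (5) or only the strains compared (5, with 1 higher, RPC11), and in rpb1-FSP with DESeq2 (2), the replicate block (2) or only the strains compared (3); elsewhere the double mutants gave 15 to 22 in spt6-R,KK and 10 to 17 in rpb1-TPY,FSP. Leaving out 1 library gave 0 to 9 in spt6-R, 1 to 5 in spt6-KK, 14 to 20 in spt6-R,KK, 0 to 1 in rpb1-FSP and 7 to 16 in rpb1-TPY,FSP, and 0 in rpb1-TPY. Class levels as medians instead of means were -0.208 for subunits shared by all 3, -0.340 for polymerase I, -0.136 for II and -0.096 for III in spt6-KK, and -0.447 for polymerase I in spt6-R,KK. Why these values moved was not tested.

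Replicate numbers paired no mutant with WT by the rule that all 3 same-numbered pairs correlate over 0.1, but did pair several mutants, both double mutants among them, whose direct comparison had 0 called genes with the block too. Over all strains these correlations ran from -0.416 to 0.485 (median 0.125), with 39 of 63 over 0.1, although 18 of 21 libraries correlated best with their own number. With a replicate block the lower genes were 7 in spt6-R, 3 in spt6-KK, 22 in spt6-R,KK, 2 in rpb1-FSP and 13 in rpb1-TPY,FSP. Depth limits the least abundant members, RPC17 above all, with as few as 32 counts.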
